A study of Mus musculus with 6 samples.

Results

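The genes described here are the 10 members of the MHC class I antigen presentation pathway that were chosen by symbol from the 31053 genes counted in each sample: B2m, H2-K1, H2-D1, H2-Q4, H2-Q7, H2-T22, H2-T23, Tap1, Tap2 and Tapbp. All 10 were found, B2m on chromosome 2 and the other 9 on chromosome 17, and they held between 800 (H2-T22) and 11121 (H2-D1) transcript counts in the cells kept. The members were picked with their values in these data already known, so their levels and differences below are a description and carry no p-value.

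The study compared dissociated retinas of mouse pups by droplet single-cell RNA sequencing with 3′ end counting, in which each captured mRNA molecule is counted once by its unique molecular identifier (UMI). The 3 OIR samples (oxygen-induced retinopathy, a model in which high oxygen first stops vessel growth and the return to room air leads to abnormal new vessels) came from pups kept at 75% oxygen from postnatal day (P) 7 to P12 and then 5 days in normoxia. The 3 control samples came from pups kept in normoxia. All 6 were collected at P17, each pooled the retinas of 2 mice, and neither strain nor genotype was given for them in the sources used here. The class I chains are among the most variable genes between mouse strains, and reads from an allele unlike the reference can be lost or assigned elsewhere, so levels of different H2 genes were not ranked against each other. The last 500 bases of the annotated transcripts were compared among the heavy chain members and H2-Q1, H2-Q2, H2-Q6 and H2-Q10, and not with further class I chains. No 90-base stretch of H2-Q7, H2-T22 or H2-T23 was identical to one of another chain compared. For H2-K1 0.0769% of the stretches were, for H2-Q4 2.55% and for H2-D1 3.55%.

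The labels called the cells retinal endothelial cells, whereas only 192 of the 38569 cells kept (of 47631 barcodes) carried the endothelial markers and 25401 were rod-like. Clusters were named from marker lists, which gave 11 types: rod-like, cone-like, rod bipolar-like, cone bipolar-like and amacrine-like neurons, Müller-like, astrocyte-like, retinal pigment epithelium (RPE)-like, vascular smooth muscle (VSMC)-like, vascular endothelial (VEC)-like and microglia-like cells. The libraries held 15788524 to 42606878 UMIs. Replicate 1 of both groups stood apart from the other 4 libraries, being deeper and holding 32.1 to 47.2% rod-like cells against 72.5 to 86.8%, and results that rest on them are also given for replicates 2 and 3 alone. Any 2 libraries shared 3 to 17 barcodes among the cells kept. By sex-linked transcripts the 3 OIR libraries and control replicate 1 were male and control replicates 2 and 3 female. With replicates 2 and 3 alone, and without control replicate 1, group and sex therefore coincide and cannot be told apart.

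Class I molecules carry short peptides from proteins made inside the cell to its surface, where CD8 T cells and natural killer cells read them. Each is a heavy chain, here the classical H2-K1 and H2-D1 or the non-classical H2-Q4, H2-Q7, H2-T22 and H2-T23, paired with the light chain β2-microglobulin from B2m. Peptides cut by the proteasome are pumped into the endoplasmic reticulum by the transporter built of Tap1 and Tap2, and tapasin, from Tapbp, holds an empty class I molecule at that transporter until a peptide fits. Interferons raise the whole pathway in most cell types. Neurons are known for low class I levels compared with immune and vascular cells.

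In build GRCm38 the genes lie, on the plus strand unless given, as follows. The light chain is B2m (ENSMUSG00000060802) at chr2:122147686-122153083. The classical heavy chains are H2-K1 (ENSMUSG00000061232) at chr17:33996017-34000347 on the minus strand and H2-D1 (ENSMUSG00000073411) at chr17:35262730-35267499. The Qa-region chains are H2-Q4 (ENSMUSG00000035929) at chr17:35379617-35385290 and H2-Q7 (ENSMUSG00000060550) at chr17:35439155-35443773, and the T-region chains H2-T22 (ENSMUSG00000056116) at chr17:36037128-36042747 and H2-T23 (ENSMUSG00000067212) at chr17:36029773-36032855, both on the minus strand. The peptide loading genes are Tap1 (ENSMUSG00000037321) at chr17:34187553-34197225, Tap2 (ENSMUSG00000024339) at chr17:34203527-34216321 and Tapbp (ENSMUSG00000024308) at chr17:33915899-33929292. All 10 are annotated as protein coding.

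The windows from 250 bases before to 50 bases after the transcription start are shown for 5 members: B2m as the light chain, H2-K1 and H2-D1 as the classical heavy chains, and H2-Q7 and H2-T23 as the chains that differed most between OIR and control in bipolar cells. They are RefSeq sequences of build GRCm38.p6, written 5′ to 3′ along the gene, at chr2:122147437-122147736, plus strand (B2m), chr17:34000298-34000597, minus strand (H2-K1), chr17:35262844-35263143, plus strand (H2-D1), chr17:35438905-35439204, plus strand (H2-Q7) and chr17:36032652-36032951, minus strand (H2-T23). Capitals mark the letters of 4 motifs that were searched on both strands: an interferon regulatory factor (IRF) element GAANNGAAA, an NF-kB site (GGGANT directly followed by NNCC), an X box CCNNGNAAC and a longer interferon element (GAAA, any 2 bases and GAAA again).
B2m: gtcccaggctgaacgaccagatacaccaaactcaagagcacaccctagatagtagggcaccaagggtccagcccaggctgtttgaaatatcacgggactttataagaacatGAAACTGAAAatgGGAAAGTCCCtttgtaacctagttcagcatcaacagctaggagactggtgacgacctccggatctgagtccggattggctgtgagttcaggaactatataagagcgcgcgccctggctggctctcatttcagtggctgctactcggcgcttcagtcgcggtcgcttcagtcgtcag
H2-K1: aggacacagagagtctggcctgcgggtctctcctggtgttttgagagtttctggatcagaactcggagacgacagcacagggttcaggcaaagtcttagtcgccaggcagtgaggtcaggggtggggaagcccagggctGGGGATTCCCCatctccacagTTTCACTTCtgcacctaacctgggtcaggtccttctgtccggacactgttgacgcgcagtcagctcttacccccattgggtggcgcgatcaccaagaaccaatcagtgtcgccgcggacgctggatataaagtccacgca
H2-D1: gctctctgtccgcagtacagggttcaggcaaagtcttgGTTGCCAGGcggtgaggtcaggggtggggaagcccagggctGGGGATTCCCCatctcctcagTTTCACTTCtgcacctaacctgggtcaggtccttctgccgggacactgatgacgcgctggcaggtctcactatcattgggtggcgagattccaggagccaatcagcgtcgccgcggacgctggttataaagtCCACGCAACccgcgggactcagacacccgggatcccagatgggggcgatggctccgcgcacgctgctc
H2-Q7: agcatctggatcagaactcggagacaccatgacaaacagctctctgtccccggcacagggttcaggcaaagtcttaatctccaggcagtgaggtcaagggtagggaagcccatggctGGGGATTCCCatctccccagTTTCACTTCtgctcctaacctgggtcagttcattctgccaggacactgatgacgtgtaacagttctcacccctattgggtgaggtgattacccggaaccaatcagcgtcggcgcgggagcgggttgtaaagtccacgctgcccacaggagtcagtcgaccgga
H2-T23: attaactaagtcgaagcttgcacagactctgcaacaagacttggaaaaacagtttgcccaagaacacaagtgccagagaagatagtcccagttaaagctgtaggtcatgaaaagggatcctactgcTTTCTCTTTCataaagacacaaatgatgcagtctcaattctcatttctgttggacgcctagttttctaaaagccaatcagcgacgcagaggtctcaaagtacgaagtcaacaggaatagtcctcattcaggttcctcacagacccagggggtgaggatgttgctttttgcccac

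Of the 10 members 9 had a window in the table. The IRF element was found in 4 of them (H2-K1, H2-D1, H2-Q4 and H2-Q7), against 7.52% of all 32851 promoter windows. The NF-kB letters stood in 6 (those 4, B2m and H2-T22), against 4.16% of all windows, and 0.301% of all windows held both motifs. In H2-K1, H2-D1 and H2-Q7 both motifs lay close together in the same order, and the letters of the IRF element were identical in these 3 and in H2-Q4. The longer interferon element, which was added after the sequences had been seen, occurred in B2m, H2-T22 and H2-T23 and in 3.44% of all windows. Only H2-D1 held letters matching the X box pattern, at -212 and -18 from the start, as did 15.1% of all windows. Neither match lay between its IRF element and its CCAAT boxes, and the letters do not show which genes have a working X box. The 5-base CCAAT box, not capitalised, was present in all 9 and in 37.4% of all windows. H2-Q2, a heavy chain outside the 10 that is described further on, had none of these motifs other than CCAAT. These are letter matches, and none was tested for binding.

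Levels are given as CPM, counts per 1000000 UMIs, of the summed counts of one cell type in one sample, the OIR values first and the control values second, each in the order of replicates 1, 2 and 3. A UMI counts a molecule whatever its length. B2m separated the retina into 2 parts. In microglia-like cells it reached 1925, 2038 and 1817 CPM in OIR and 1509, 1854 and 1640.4 CPM in control. In Müller-like cells, the main glia of the retina, B2m measured 142, 86.5 and 79.3 CPM in OIR and 52.2, 80.8 and 55 CPM in control. In rod-like cells it was 1.04 to 5.44 CPM over the 6 samples, in rod bipolar-like cells 1.02 to 4.20, in cone bipolar-like cells 0.689 to 4.63, in cone-like cells 0 to 4.22 and in amacrine-like cells 0 to 13.8. Every neuronal sum was below every Müller-like sum.

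By mean level over the 6 samples, B2m was ordered microglia-like, VEC-like, RPE-like, astrocyte-like, VSMC-like and Müller-like, followed by the 5 neuronal types. Only 2 gaps between neighbours were wider than the larger of their SDs: microglia-like over VEC-like, 1797 ± 193 against 513 ± 414 CPM (SD, n = 6), and Müller-like over amacrine-like, 82.7 ± 32.5 against 4.63 ± 5.64 CPM. The 5 neuronal types did not differ from each other beyond their spread. VEC-like values varied from 0 to 1077 CPM, and the 0 in OIR replicate 3 came from 2 cells with 3421 UMIs in all, where 3 UMIs would be worth 877 CPM. Microglia-like cells, 0.633% of the cells, held 44.8% of all B2m counts, and Müller-like cells held 27.3%. Rod-like cells, 65.9% of the cells, held 1.62%.

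**Figure D1:**
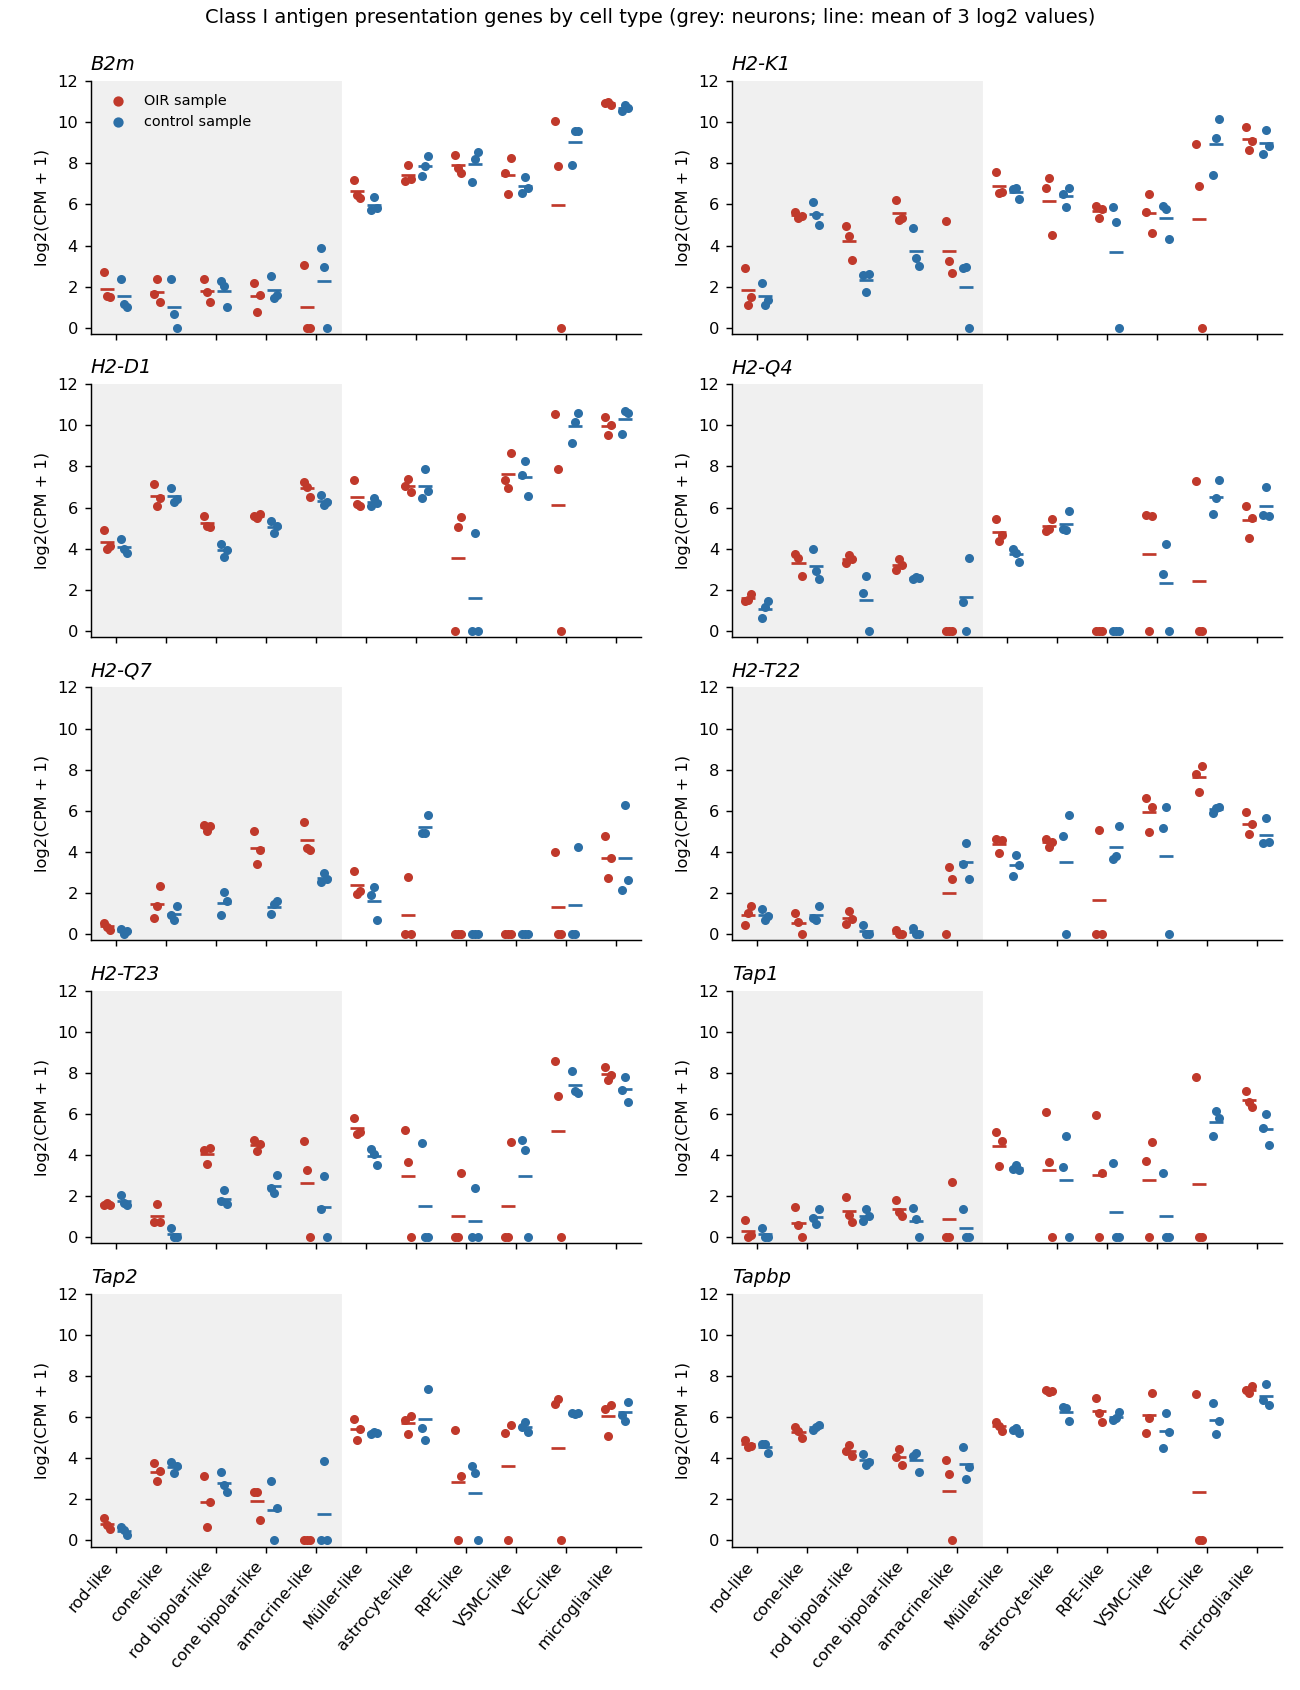
Each panel plots 1 member as log2(CPM + 1) of the summed counts, with 1 point for each sample (red OIR, blue control) and a line at the mean of 3 samples, over the 11 cell types (neurons on grey). B2m is below 4 in the neurons and above 5 in the other types, except for 1 VEC-like sample at 0. H2-D1 is well above 0 in the neurons too, and so is Tapbp except for 1 amacrine-like OIR sample at 0.

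H2-D1 did not follow B2m into this division. H2-D1 in cone-like cells measured 139.6, 67.5 and 86.3 CPM in OIR and 123, 77.2 and 83.7 CPM in control. In Müller-like cells the corresponding values were 161, 72.2 and 65.98 CPM in OIR and 65.9, 85.9 and 74.9 CPM in control, so that cones and Müller glia overlapped. Amacrine-like cells held 68.7 to 150.4 CPM of H2-D1, cone bipolar-like cells 25.7 to 50.2, rod bipolar-like cells 10.9 to 47.7 and rod-like cells 13.1 to 29.1. In the order of mean H2-D1 levels, amacrine-like (102 CPM) and cone-like (96.2 CPM) stood between astrocyte-like (139 CPM) and Müller-like (87.7 CPM), with no gap beyond the spread among these 4. Microglia-like cells were highest, at 727 to 1672 CPM.

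H2-K1 was uneven among the neurons, whose sums were all below those of Müller-like cells. Cone-like cells held 30.6 to 68.5 CPM and rod-like cells, the other photoreceptors, 1.12 to 6.60 CPM. Müller-like cells held 43.4% of all H2-K1 counts, with 188, 94.4 and 96.2 CPM in OIR and 107, 111 and 76.1 CPM in control. Microglia-like cells reached 354 to 866 CPM.

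Each of the non-classical chains had its own distribution. Of the H2-Q7 counts 37.4% lay in rod bipolar-like and 33.2% in cone bipolar-like cells, which held 10.9% and 15.2% of all UMIs. Müller-like cells held the largest share of H2-Q4 (44.3%), H2-T22 (49.9%) and H2-T23 (34.0%). H2-T22, a chain with no known need for the peptides that Tap1 and Tap2 supply, was near the detection limit in photoreceptors and bipolar cells, at most 1.61 CPM in any sum. H2-T23 encodes Qa-1, the ligand of the inhibitory receptor CD94/NKG2A on natural killer cells, and reached 94.9 to 309 CPM in microglia-like and 10.5 to 54.6 CPM in Müller-like cells.

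Most counts of both transporter subunits were glial. Müller-like cells held 53.3% of Tap1 and 57.6% of Tap2 counts. In no sum of a neuronal type did Tap1 exceed 5.38 CPM, a value that rests on 1 UMI. Tap2 was higher in cone-like cells, at 6.33 to 13.2 CPM, than in rod-like cells, at 0.207 to 1.16 CPM. Tapbp was spread most evenly, with 30.3% of its counts in rod-like cells. It measured 18.2 to 28.7 CPM in rod-like, 31.02 to 48.3 CPM in cone-like and 36.9 to 52.7 CPM in Müller-like cells, the last 2 overlapping.

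Because every class I heavy chain needs B2m to reach the surface in stable form, the counts of the 6 heavy chain members were set against those of B2m within the same cells. In the neurons nearly all of these counts were heavy chain. The heavy chain share of the sum of heavy chain and B2m counts was 87.4 to 94.9% over the 6 samples in rod-like, 96.7 to 100% in cone-like, 88.3 to 98.8% in rod bipolar-like, 94.4 to 99.4% in cone bipolar-like and 89.9 to 100% in amacrine-like cells. In microglia-like cells it was 40.5 to 61.2%, in Müller-like cells 73.1 to 80.5% and in astrocyte-like cells 53.8 to 70.1%. The lowest shares, 9.09 to 36.8%, were those of RPE-like cells. In rod bipolar-like cells the share was 97.2, 97.9 and 98.8% in OIR and 88.3, 89.2 and 95.8% in control, which did not overlap. The B2m part of these rod bipolar-like shares rests on 26 UMIs in each group, against 1034 heavy chain UMIs in OIR and 215 in control. In cone bipolar-like cells the share was 98.1, 99.4 and 98.5% in OIR and 94.4, 96.4 and 96.4% in control, also without overlap. Both restate the heavy chain counts compared between the groups further on and are no second support. The neuronal ranges overlapped none of the ranges of glia, microglia or RPE, and overlapped that of VEC-like cells only through OIR replicate 3 with its 2 cells.

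**Figure D2:**
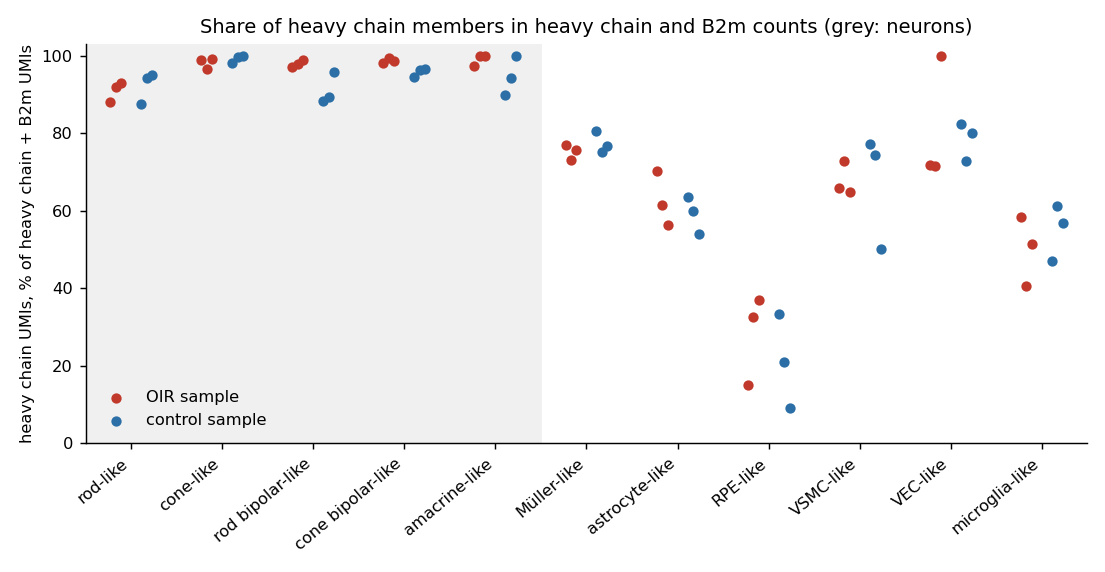
The vertical axis is the share (%) of counts of the 6 heavy chain members in the sum of their counts and those of B2m, with 1 point for each sample (red OIR, blue control) in each of 11 cell types. All neuronal points (grey) are at or above 87.4%, Müller-like points lie at 73.1 to 80.5% and microglia-like points at 40.5 to 61.2%.

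RNA released from broken cells is captured with every droplet, so the counts in neurons were set against C1qa, C1qb and C1qc, which microglia make and neurons do not. Per 100 C1q counts, B2m gave 26.5 counts in rod-like, 25.8 in cone-like, 21.8 in rod bipolar-like and 23.5 in cone bipolar-like cells, against 7.68 in microglia-like cells. H2-D1 gave 196, 988, 192 and 280 counts per 100 C1q counts in the same 4 neuronal types against 4.94 in microglia-like cells. How much of the low neuronal B2m came from free RNA was not tested.

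The comparison of OIR with control asked whether the genes differ between retinas with and without retinopathy. In rod bipolar-like cells, which relay the rod signal, H2-K1, H2-D1, H2-Q4, H2-Q7 and H2-T23 were higher in every OIR sample than in any control sample. H2-Q7 measured 38.2, 31.7 and 36.7 CPM in OIR and 0.918, 3.11 and 2.03 CPM in control. H2-T23 measured 18.3, 10.96 and 19.01 CPM in OIR and 2.39, 3.89 and 2.03 CPM in control, and H2-K1 30.2, 20.8 and 8.82 CPM in OIR and 4.95, 2.33 and 5.08 CPM in control. The H2-K1 level of OIR replicate 3 was well below those of the other 2. H2-D1 was 47.7, 33.4 and 31.9 CPM in OIR and 17.98, 10.9 and 14.2 CPM in control, and H2-Q4 9.03, 12.1 and 10.2 CPM in OIR and 2.57, 5.44 and 0 CPM in control, neither with overlap. The B2m ranges overlapped, at 4.20, 2.31 and 1.36 CPM in OIR and 3.85, 3.11 and 1.02 CPM in control. These B2m values rest on 20, 4 and 2 UMIs in OIR and 21, 4 and 1 UMIs in control, too few for the fit, so a difference could be missed.

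The fitted log2 fold changes of OIR over control in rod bipolar-like cells were 4.50 ± 0.36 (SE) for H2-Q7, 2.57 ± 0.38 for H2-T23, 2.23 ± 0.43 for H2-K1, 1.83 ± 0.46 for H2-Q4, 1.29 ± 0.26 for H2-D1 and 0.34 ± 0.24 for Tapbp. The fit was edgeR's quasi-likelihood test on summed counts, and a gene was called where its adjusted p was under the threshold of 0.05 and its log2 fold change at least 0.25 in size. Each SE of a fold change was derived from that test, as the size of the log2 fold change divided by the square root of the test's F statistic. Of the 6 members with enough counts for the fit, 4 were called higher (H2-Q7, H2-T23, H2-K1 and H2-D1), where 1.29% of all 9332 genes tested were called higher. The OIR range lay above the control range in 5 of the 6, against 11.6% of all genes tested. The median log2 fold change of the 6 was 2.03, and that of all genes tested -0.0036. The rule that picked the members used this contrast, and nothing further is read from these counts. Control levels of H2-Q7, H2-T23, H2-K1 and H2-Q4 alone would not have passed the count filter. No member was called lower in any of the 8 types fitted, where the share of all genes called lower was 1.18% in rod bipolar-like, 0.351% in cone bipolar-like, 1.15% in Müller-like, 0.0295% in microglia-like, 0.995% in rod-like, 0.447% in cone-like, 0% in amacrine-like and 0.0567% in RPE-like cells.

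With replicates 2 and 3 alone, a choice made after the data had been seen, the same 4 members were called. That fit called 301 of all 9238 genes tested higher, against 120 of 9332 with all libraries. All OIR libraries of that subset are male and all its control libraries female. H2-Q7 and H2-T23 were called in all 14 settings tried, H2-K1 in 11 and H2-D1 in 10. All settings reuse the values that the rule used, so these counts describe dependence on the processing and are no further support. Without OIR replicate 1, or without control replicate 2, H2-Q7 and H2-T23 were the only members called. H2-K1 was also lost without OIR replicate 2, and H2-D1 without control replicate 3 and with a term for sex. With the replicate number as a block H2-Q4 was called too, for 5 members, where 293 of 9332 genes were called higher. H2-Q4 was also called with DESeq2, with no filter on low counts and with barcodes holding markers of 2 types removed.

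The same H2-Q7 counts were also expressed as the share of rod bipolar-like cells with at least 1 UMI, which is no second support. By sample it was 20.4, 19.6 and 21.0% in OIR and 0.611, 2.44 and 1.27% in control. Pooled, it was 186 of 915 OIR cells (20.3%, exact 95% interval 17.8 to 23.1%) against 11 of 1140 control cells (0.965%, 0.483 to 1.72%). Rod-like cells, in which H2-Q7 was close to 0, gave 0.0710% in OIR and 0.0157% in control. Median depth was 8881 UMIs a cell in OIR and 6864 in control rod bipolar-like cells, and 2250 and 1612 in rod-like cells. Cells with at least 1000 UMIs were then thinned to 1000 UMIs. That left out 19 OIR and 6 control rod bipolar-like cells, and 1365 and 1109 rod-like cells. After thinning, 3.79% of OIR and 0 of 1134 control rod bipolar-like cells kept a UMI of H2-Q7, with 0.0177% and 0.0172% of rod-like cells. These intervals cover counting error over pooled cells only, and cells are not replicates of a group.

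Cone bipolar-like cells, which carry the cone signal, showed a like pattern. H2-Q7 measured 31.4, 9.65 and 15.9 CPM in OIR and 0.948, 1.72 and 2.01 CPM in control. H2-T23 measured 25.4, 17.2 and 22.5 CPM in OIR and 4.21, 3.43 and 7.04 CPM in control. H2-K1 measured 71.98, 37.2 and 38.9 CPM in OIR and 27.7, 9.43 and 7.04 CPM in control. In each the lowest OIR sample was above the highest control sample, and replicate 1 held the highest H2-K1 value of its group in both groups. H2-D1, at 47.04, 44.1 and 50.2 CPM in OIR and 39.7, 25.7 and 33.2 CPM in control, and H2-Q4, at 6.87, 10.3 and 8.19 CPM in OIR and 4.85, 5.15 and 5.03 CPM in control, were apart by less.

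The log2 fold changes in cone bipolar-like cells were 4.09 ± 0.55 (SE) for H2-Q7, 2.25 ± 0.31 for H2-T23, 1.39 ± 0.38 for H2-K1, 0.65 ± 0.32 for H2-Q4, 0.40 ± 0.19 for H2-D1 and 0.01 ± 0.27 for Tapbp. H2-Q7 and H2-T23 were the 2 of 6 fitted members that were called, both higher, where 0.517% of all 10258 genes were called higher. The OIR range lay above the control range in 5 of 6, against 11% of all genes. Control levels of H2-Q7, H2-T23 and H2-Q4 alone would not have passed the count filter. H2-Q7 and H2-T23 were called in all 14 settings, which again reuse the values that the rule used. H2-K1 joined them in 4, namely with no filter on low counts, with the replicate block, with replicates 2 and 3 alone and without control replicate 1. In the last 2 of these settings group and sex coincide. In that order they called 215 of 18901, 244 of 10258, 143 of 9882 and 94 of 10188 genes higher, against 53 of 10258 before. Median log2 fold change was 1.02 for the 6 members and -0.01 for all genes tested.

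**Figure D3:**
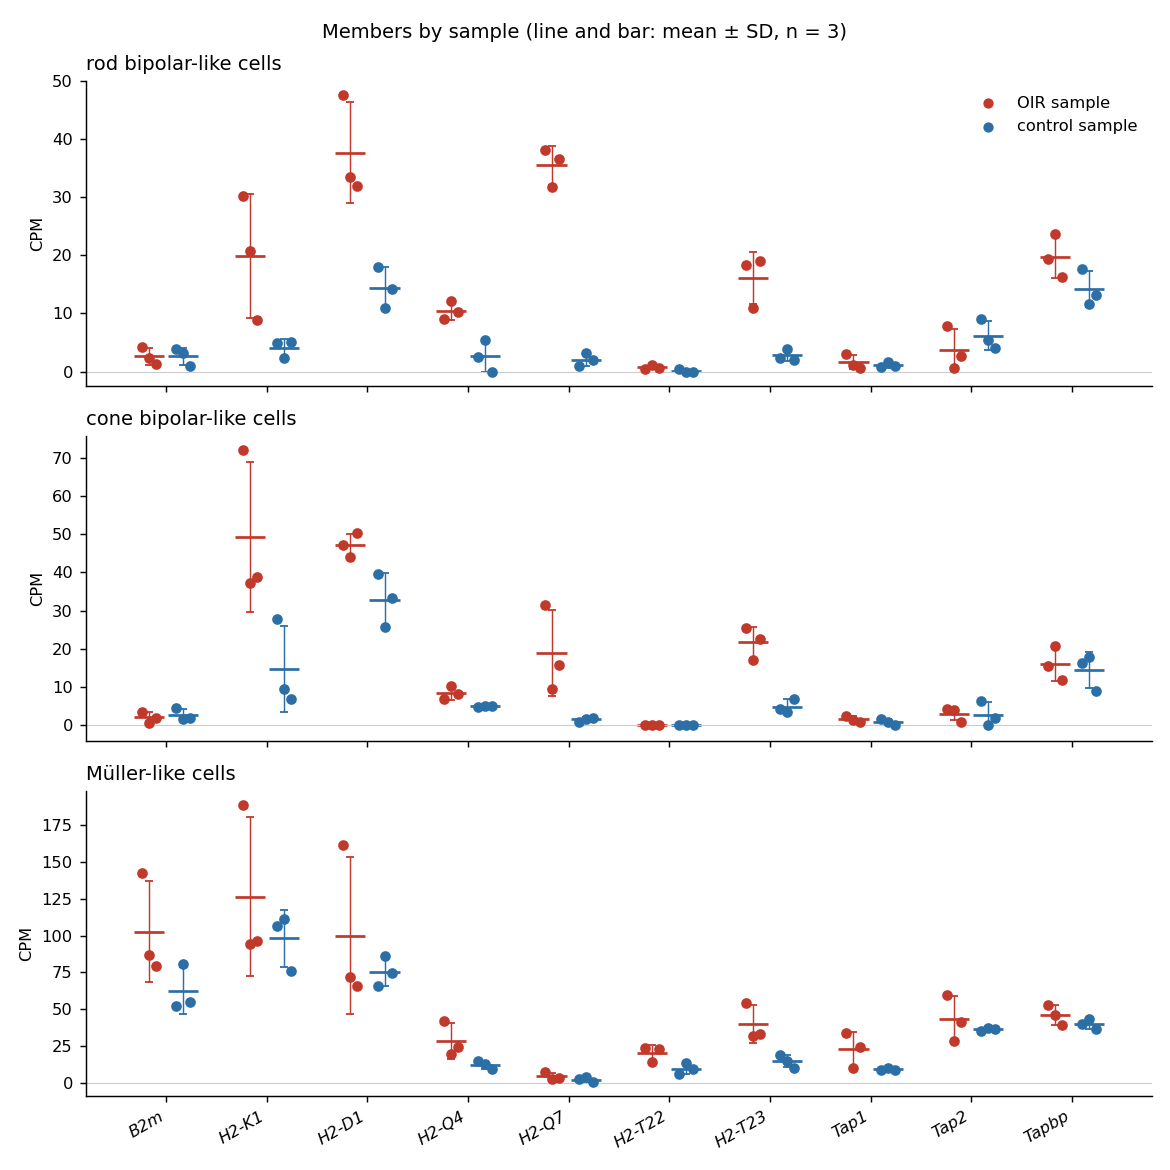
CPM of the 10 members by sample (points; red OIR, blue control) with the mean and SD of 3 samples (line and bar) in rod bipolar-like, cone bipolar-like and Müller-like cells, each panel on its own linear axis. In both bipolar panels the OIR points of H2-K1, H2-D1, H2-Q4, H2-Q7 and H2-T23 lie above all control points, and those of B2m do not.

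Markers of other cells were read in the same sums. The summed level of the 10 microglia markers in rod bipolar-like cells was 7.50 to 35.9 CPM in OIR and 6.10 to 51.4 CPM in control, all 10 with at least 1 UMI, against 40023 to 51665 CPM in microglia-like cells. In cone bipolar-like cells it was 11.8 to 27.8 CPM in OIR and 3.43 to 49.8 CPM in control, with all 10 again present. The 9 lymphocyte markers summed to 0 to 0.630 CPM in OIR and 0 to 1.02 CPM in control rod bipolar-like cells, with Cd3e, Cd3d, Trac, Nkg7, Ms4a1 and Cd79a at 0. The 9 endothelial markers summed to 14.9 to 19.3 CPM in OIR and 7 to 19.5 CPM in control. All of these ranges overlapped. The 5 red blood cell genes were lower in OIR, 0.679 to 7.98 CPM in OIR and 14 to 42.9 CPM in control, as were the 4 markers of perivascular macrophages, 45.1 to 55.9 CPM in OIR and 62.02 to 76.2 CPM in control, of which Cd163 and Pf4 were at 0. In cone bipolar-like cells the red blood cell genes, 2.56 to 11.03 CPM in OIR and 18.01 to 77 CPM in control, and the endothelial markers, 33.8 to 59.3 CPM in OIR and 63.4 to 86.2 CPM in control, were lower in OIR, and the perivascular macrophage markers overlapped, at 48.7 to 72.4 CPM in OIR and 70.4 to 93.3 CPM in control. The 8 neutrophil markers were higher in OIR rod bipolar-like cells, 1.73 to 2.10 CPM in OIR and 0 to 1.47 CPM in control, where Csf3r and Lcn2 had UMIs and S100a8, S100a9, Retnlg, Ngp, Camp and Ltf were at 0. In cone bipolar-like cells their ranges overlapped, at 1.49 to 2.76 CPM in OIR and 0 to 2.21 CPM in control. The part of these genes in the differences was not tested.

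The bipolar cells fell into 7 clusters, of which 1 was rod bipolar-like and 6 were cone bipolar-like. Summed over the 3 samples a group, H2-Q7 had 291 UMIs in OIR against 11 in control in the rod bipolar-like cluster, with 915 and 1140 cells. Among the cone bipolar-like clusters it had 86 against 1 UMI in the one led by Cck (250 and 347 cells), 65 against 2 in that led by Adarb2 (321 and 402 cells) and 44 against 1 in that led by Slit2 (168 and 224 cells). In the clusters led by Htr3a, Otor and Igfn1 it had 39 against 7, 12 against 1 and 9 against 1. Each of the 7 clusters thus held more H2-Q7 counts in OIR, but the CPM ranges of the groups overlapped in the Htr3a, Otor and Igfn1 clusters. In the Adarb2 cluster 58 of the 65 OIR counts came from replicate 1. In the Htr3a and Otor clusters OIR replicate 2 had 0 H2-Q7 counts, and in the Igfn1 cluster OIR replicate 3 had 0.

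The clusters were not alike in H2-T23. The Cck cluster held 60.8, 47.1 and 59.5 CPM in OIR and 6.99, 18.7 and 8.15 CPM in control, and the Htr3a cluster 3.96, 2.18 and 0 CPM in OIR and 2.03, 0 and 11.2 CPM in control, the latter from 9 and 8 UMIs. H2-K1 in the Otor cluster was 58.8, 60.8 and 85.4 CPM in OIR and 23.4, 23.6 and 0 CPM in control. H2-D1 in that cluster was 26.6, 20.3 and 36.6 CPM in OIR and 40.9, 39.3 and 33.9 CPM in control, which overlap. Control replicates 2 and 3 had few cells in most of these clusters, so that a single UMI moves a value by several CPM, and no cluster was tested.

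**Figure D4:**
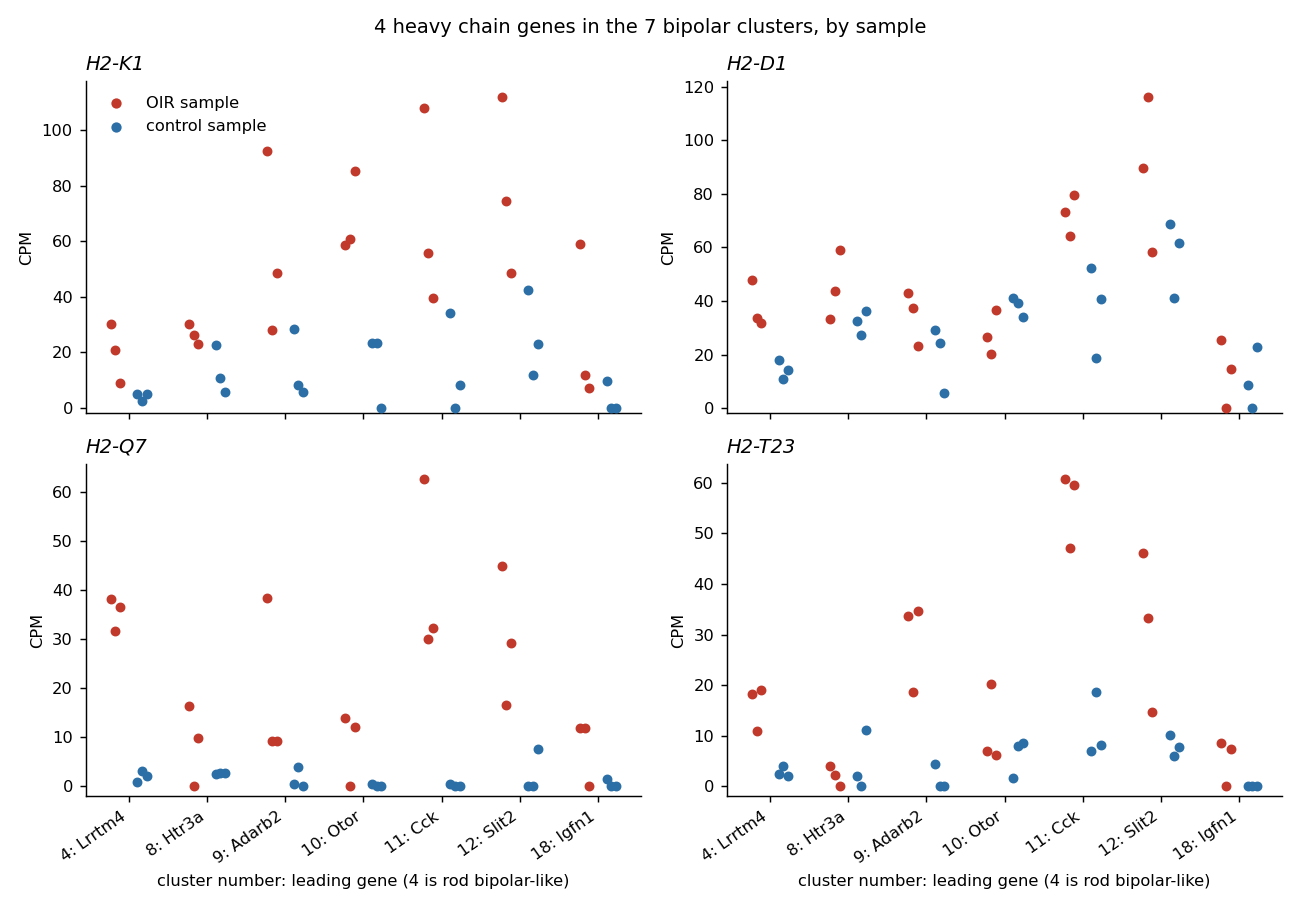
CPM of H2-K1, H2-D1, H2-Q7 and H2-T23 by sample (red OIR, blue control) in the 7 bipolar clusters, named by number and leading gene, with each panel on its own linear axis. H2-Q7 reaches 62.7 CPM in an OIR sample of the Cck cluster, where 2 of the 3 control samples are at 0, and H2-T23 of the Htr3a cluster overlaps between the groups.

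In Müller-like cells all 10 members were above the limit for the fit, and the log2 fold changes were at most 1.33. H2-T23 measured 54.6, 32.03 and 33.3 CPM in OIR and 18.9, 15.3 and 10.5 CPM in control. H2-Q4 measured 42.3, 19.5 and 24.2 CPM in OIR and 14.8, 12.9 and 9.36 CPM in control, and H2-T22 23.6, 14.3 and 23 CPM in OIR and 6.18, 13.3 and 9.36 CPM in control. The OIR and control ranges of these 3 were apart. Tap1 measured 33.8, 10.2 and 24.5 CPM in OIR and 9.10, 10.6 and 8.78 CPM in control, with OIR replicate 2 inside the control range, and B2m 142, 86.5 and 79.3 CPM in OIR and 52.2, 80.8 and 55 CPM in control, with OIR replicate 3 just below control replicate 2.

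The log2 fold changes in Müller-like cells were 1.33 ± 0.27 (SE) for H2-T23, 1.26 ± 0.39 for Tap1, 1.15 ± 0.32 for H2-Q4, 1.11 ± 0.32 for H2-T22, 0.85 ± 0.53 for H2-Q7, 0.68 ± 0.26 for B2m, 0.38 ± 0.32 for H2-D1, 0.32 ± 0.28 for H2-K1, 0.22 ± 0.25 for Tap2 and 0.15 ± 0.17 for Tapbp. Of the 10, H2-T23 alone was called, where 1.63% of all 11627 genes were called higher, and 3 of 10 ranges were apart against 13.9% of all genes. No member was called without OIR replicate 1, without OIR replicate 3, without control replicate 2 or without control replicate 3. H2-T23 was called with replicates 2 and 3 alone, where group and sex coincide and 193 of 11528 genes were called higher. With a term for sex H2-T23 was not called and H2-T22 was. H2-D1, H2-K1, Tap2 and Tapbp, none of them called, were below 0 without OIR replicate 1 and with replicates 2 and 3 alone, down to -0.32 for H2-D1. With the replicate block 2 were called, H2-T23 and H2-Q4, where 252 of 11627 genes were called higher. The median log2 fold change was 0.77 for the members and -0.01 for all genes tested.

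Müller-like cells comprised a deep cluster, with a median of 9201 UMIs a cell and 1168 OIR and 1038 control cells, and a shallow one, with 1773 UMIs and 1115 and 576 cells. The groups thus took different shares of the type from each. Within the deep cluster H2-T23 measured 57.8, 34.3 and 36.7 CPM in OIR and 21.1, 17.5 and 11.6 CPM in control, and within the shallow one 33.9, 25.1 and 23.8 CPM against 3.98, 4.54 and 4.14 CPM. The ranges were apart in both clusters, but the control values of the shallow one rest on few UMIs. Control replicate 3 had 105 cells there, and its 4.14 CPM of H2-T23 was its lowest value above 0 among the members. In the deep cluster alone, another choice made after the data had been seen, H2-T23 remained called, where 148 of 11187 genes were called higher. The clusters differed in other members. In the shallow cluster B2m was 99.9, 93.2 and 65.8 CPM in OIR and 41.1, 43.1 and 33.2 CPM in control, and H2-K1 was 83.9, 71.7 and 72.6 CPM in OIR and 41.1, 29.5 and 24.9 CPM in control. H2-D1 there was 98.9, 65.7 and 53.3 CPM in OIR and 47.7, 29.5 and 33.2 CPM in control. The ranges of these 3 were apart in the shallow cluster and overlapped in the deep one. The same held for the ranges of H2-Q7, Tap1 and Tapbp, with control replicate 3 at 0 CPM for H2-Q7 and Tap1 in the shallow cluster. Those of H2-Q4 and H2-T22 were apart in the deep cluster and overlapped in the shallow one, and those of Tap2 overlapped in both. The share of all genes with ranges apart was not taken within clusters, so nothing is read from these counts. No difference between the clusters was tested. Summed over the 9 endothelial markers, Müller-like cells held 1045 to 1241 CPM in OIR and 891 to 1009 CPM in control, which was higher in OIR, all 9 with a UMI. Their 10 microglia markers summed to 25.7 to 47.4 CPM in OIR and 25.1 to 55.96 CPM in control. The part of either in the Müller values was not tested.

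Microglia-like cells held the highest mean of 8 of the 10 members and showed no called difference. B2m measured 1925, 2038 and 1817 CPM in OIR and 1509, 1854 and 1640.4 CPM in control, which overlap. Tap1 was the only member whose ranges were apart, at 139, 94.4 and 80.4 CPM in OIR and 39.1, 62.95 and 21.1 CPM in control, a log2 fold change of 1.48 ± 0.37 (SE). Control levels of Tap1 alone would not have passed the count filter. H2-T23 measured 309, 199.9 and 237 CPM in OIR and 143, 224 and 94.9 CPM in control, with control replicate 2 inside the OIR range. Of 8 members fitted, edgeR called 0 and DESeq2 0 higher, where edgeR called 0.295% of all 3393 genes higher, and 1 of 8 ranges was apart against 6.6% of all genes. In simulated counts with the depth of these sums, genes changed 2-fold were recovered in 27% and those changed 4-fold in 96.5% of cases, so a difference of 2-fold was often below what 17 to 81 cells a sample can show. In these cells the red blood cell genes, 0 to 5.19 CPM in OIR and 13.99 to 42.5 CPM in control, and the neutrophil markers, 66.6 to 101 CPM in OIR and 126 to 185 CPM in control, were lower in OIR. The perivascular macrophage markers were 455, 22.2 and 1536 CPM in OIR and 1.70, 42.0 and 0 CPM in control, much higher in OIR replicates 1 and 3. The part of these 3 lists in the Tap1 values was not tested.

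Photoreceptors had no called member. In rod-like cells 6 members were fitted, with log2 fold changes from -0.37 (H2-T23) to 0.54 (H2-Q4), those of B2m, H2-K1 and H2-D1 turning below 0 without OIR replicate 1 or with a term for sex, where 1.58% of all genes were called higher. The OIR range lay above the control range in 0 of the 6, against 23.8% of all genes. In cone-like cells 5 were fitted, all with log2 fold changes below 0, from -0.31 (H2-K1) to -0.03 (H2-D1), those of H2-K1, H2-D1 and H2-Q4 turning above 0 without control replicate 1, where 0.799% of all genes were called higher. The OIR range lay above the control range in 0 of the 5, against 11.1% of all genes. H2-Q7 was 0 to 0.463 CPM in rod-like and 0.585 to 4.05 CPM in cone-like cells. Of the rod-like cells a cluster led by Rnf207 and Nr2e3 held 4865 OIR and 2841 control cells and one led by Gm19667 and Gm20139 held 4388 and 6290, so rod values compare different mixtures of clusters.

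Amacrine-like cells were few, 25 to 153 a sample, and only H2-D1 could be fitted, at 150.4, 128 and 91.5 CPM in OIR and 97.9, 68.7 and 75.1 CPM in control and a log2 fold change of 0.60 ± 0.30 (SE), not called. Their H2-Q7, too low for the fit, was 42.97, 17.1 and 16.2 CPM in OIR and 4.86, 6.87 and 5.36 CPM in control, from 12, 2 and 3 UMIs in OIR and 6, 1 and 1 UMIs in control. In RPE-like cells, B2m was the only member fitted, with a log2 fold change of -0.16 ± 0.38 (SE). Among amacrine-like and RPE-like cells 0.0529% and 0% of all genes tested were called higher.

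VEC-like, VSMC-like and astrocyte-like cells had under 10 cells in at least 1 sample and were not fitted. H2-T22 in VEC-like cells was 218, 118 and 292 CPM in OIR and 58.6, 69.5 and 72.5 CPM in control, but OIR replicates 2 and 3 rested on 1 UMI each. For H2-Q7 in astrocyte-like cells the values were 0, 5.92 and 0 CPM in OIR and 29.6, 28.9 and 55.2 CPM in control, from 0, 1 and 0 UMIs in OIR and 9, 1 and 1 UMIs in control. The depth of these 3 types does not allow a comparison.

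**Figure D5:**
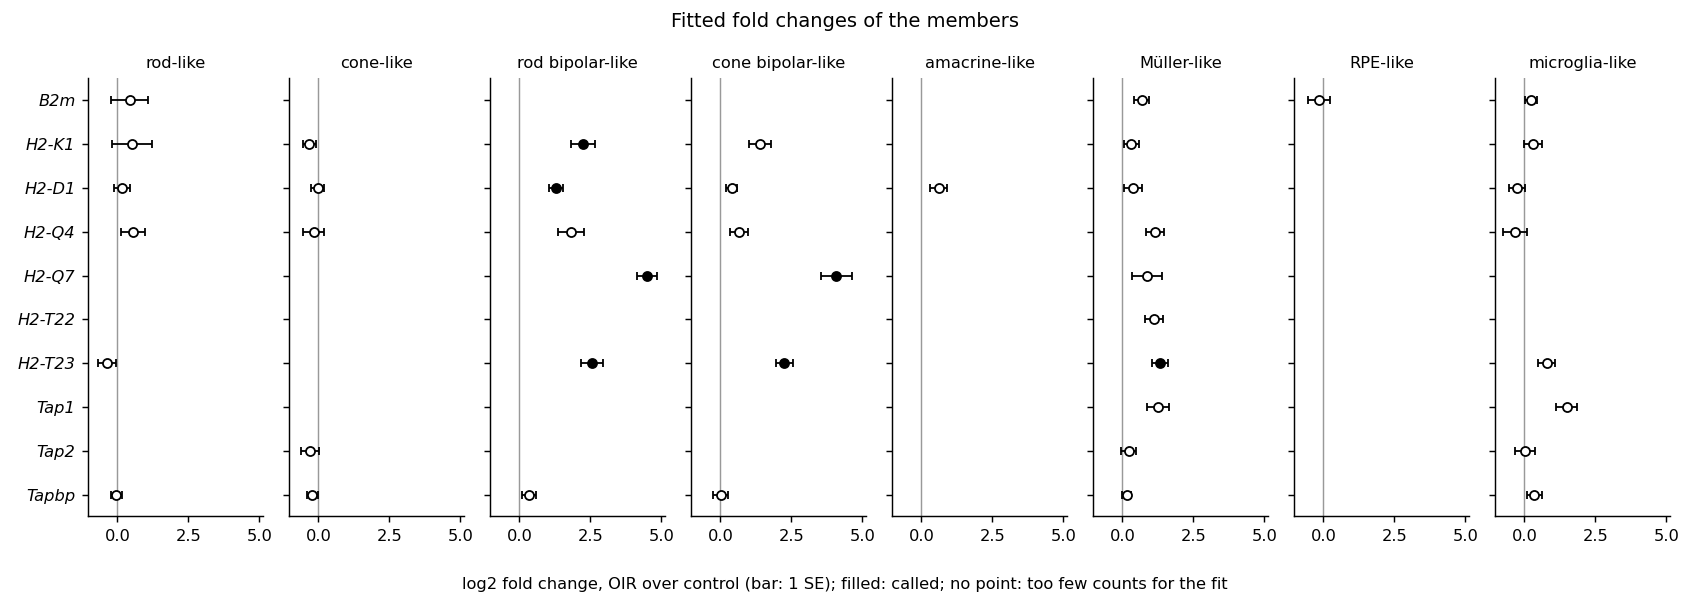
Fitted log2 fold changes (OIR over control, horizontal axis) with bars of 1 SE for the 10 members (rows) in the 8 cell types that were fitted. Filled points were called. The largest are H2-Q7 at 4.50 in rod bipolar-like and 4.09 in cone bipolar-like cells, B2m has no point in either because its counts were too few, and no member was called in rod-like, cone-like, amacrine-like, RPE-like or microglia-like cells.

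The other genes of the pathway were taken from lists and each was tested, adjusted over all genes. They were 77 genes in 7 lists, namely further heavy chains and class I-like chains, loading chaperones, immunoproteasome subunits, cytosolic peptidases, class I transcription factors, interferon receptors with their kinases, and the receptors that recognise class I. In rod bipolar-like cells 41 of the 77 could be tested, and 2 rose and 0 fell, where 1.29% of all genes tested were called higher. H2-Q2, another Qa-region heavy chain, measured 11.97, 6.34 and 10.2 CPM in OIR and 0.367, 0 and 1.02 CPM in control, a log2 fold change of 4.47 ± 0.61 (SE, edgeR adjusted p = 0.00123, 5.21e-09 to 0.0134 over 10 alternatives). It was the only one of 18 further heavy and class I-like chains with enough counts there. It passed the count filter through its OIR samples, with 57, 11 and 15 UMIs in OIR and 2, 0 and 1 in control. Its adjusted p therefore describes a gene let in by its OIR level and is no independent support. H2-Q2 fell below the count filter without OIR replicate 1, with replicates 2 and 3 alone and with doublets removed.

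Psmb10, an interferon-inducible subunit of the immunoproteasome, rose in rod bipolar-like cells from 17.4, 9.33 and 13.2 CPM in control to 25.6, 29.99 and 38.01 CPM in OIR, a log2 fold change of 1.02 ± 0.25 (SE, edgeR adjusted p = 0.0495, 0.00230 to 0.271 over 13 alternatives). The call was lost with a term for sex and without OIR replicate 2, OIR replicate 3, control replicate 2 or control replicate 3. Its partners in the immunoproteasome were far lower, Psmb8 at 0 to 1.10 CPM and Psmb9 at 0.367 to 3.15 CPM. Calr, Canx, Pdia3 and the other loading chaperones gave 0 calls of 8 tested, the transcription factors 0 of 10 and the interferon receptors and kinases 0 of 7. The median log2 fold change of the 41 was 0.12, against -0.0036 for all genes tested. H2-Q6, the neighbour whose promoter window shared 84.7% of its bases with that of H2-Q7, was too low for the filter, at 3.78, 4.61 and 3.39 CPM in OIR and 0.184, 0 and 1.02 CPM in control.

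In cone bipolar-like cells edgeR called 0 of 41 pathway genes tested and DESeq2 0, with 3 at an unadjusted p under 0.05, and 1 was called with the replicate block (Calr). H2-Q2 there measured 8.96, 8.27 and 5.63 CPM in OIR and 0.105, 0.858 and 0 CPM in control but did not pass the filter, and 44 of its 83 OIR counts lay in the Cck cluster against 0 control counts. In cone-like cells H2-Q2 did not share this pattern, at 5.20, 9.50 and 2.70 CPM in OIR and 9.63, 4.68 and 4.83 CPM in control.

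In Müller-like cells 2 of 50 pathway genes rose and 0 fell, where 1.63% of all genes tested were called higher. Psmb10 went from 33.5, 46.3 and 43.9 CPM in control to 115, 67.9 and 91.4 CPM in OIR, a log2 fold change of 1.12 ± 0.23 (SE, edgeR adjusted p = 0.0295, 1.87e-04 to 0.0957 over 14 alternatives). Irf9, a transcription factor of the interferon response, went from 13.7, 14.9 and 10.5 CPM to 37.6, 21.3 and 44.5 CPM, a log2 fold change of 1.32 ± 0.27 (SE, edgeR adjusted p = 0.0339, 2.42e-04 to 0.121 over 14 alternatives). For both genes every OIR sample was above every control sample, and both calls were lost with replicates 2 and 3 alone and without any 1 of OIR replicate 1, OIR replicate 3, control replicate 2 and control replicate 3. Irf9 was also lost with a term for sex (edgeR adjusted p = 0.0853) and Psmb10 in the deeper Müller cluster alone (edgeR adjusted p = 0.0591). Of the transcription factors 1 of 12 rose, of the proteasome genes 1 of 10, and of the 9 chaperones, 7 peptidases and 7 receptors and kinases 0. The median log2 fold change of the 50 was 0.12, against -0.01 for all genes tested. Nlrc5, the main activator of class I genes, had 38 UMIs in OIR, 37 of them in replicate 1, and 0 in control, and was too low for the filter.

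In cone-like cells 1 of 39 pathway genes rose and 0 fell, where 0.799% of all genes tested were called higher. Cd8a, known as the co-receptor of T cells for class I, measured 64.1, 45.4 and 54.6 CPM in OIR and 34.2, 24.6 and 25.8 CPM in control, a log2 fold change of 0.84 ± 0.20 (SE, edgeR adjusted p = 0.0473, 7.47e-04 to 0.251 over 13 alternatives). Of the 9 lymphocyte markers, Cd3e, Cd3d, Trac and 5 more were at 0 in these cells and 1 had a UMI. The 8 neutrophil markers were higher in OIR cone-like cells, 22.9 to 33.2 CPM in OIR and 8.77 to 21.2 CPM in control, with S100a8 and Lcn2 present and the other 6 at 0. Their part in the Cd8a difference was not tested. The call was lost with DESeq2, a term for sex, doublets removed and without OIR replicate 1, OIR replicate 3, control replicate 2 or control replicate 3. With the replicate block 2 genes were called, Cd8a among them.

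In rod-like cells 1 of 45 pathway genes rose and 0 fell, where 1.58% of all genes tested were called higher. Hfe, a class I-like chain that pairs with B2m and takes part in iron sensing, measured 7.76, 8.91 and 10.3 CPM in OIR and 4.80, 3.29 and 3.73 CPM in control, a log2 fold change of 1.05 ± 0.22 (SE, edgeR adjusted p = 0.0476, 0.00264 to 0.341 over 13 alternatives). The groups differed in their shares of the rod-like clusters, as given above, and the 5 red blood cell genes summed in rod-like cells to 10.3 to 48.4 CPM in OIR and 1507 to 2549 CPM in control. The 8 neutrophil markers summed to 17.7 to 22.5 CPM in OIR and 8.498 to 14.6 CPM in control, with Retnlg and Ltf at 0, and the 9 rod markers to 46665 to 53236 CPM in OIR and 55383 to 61984 CPM in control. The part of any of these in the Hfe difference was not tested. The call was lost with a term for sex and without OIR replicate 2, OIR replicate 3, control replicate 2 or control replicate 3, and with the replicate block Calr was called beside Hfe, for 2 genes. In microglia-like, amacrine-like and RPE-like cells edgeR and DESeq2 called 0 of 37, 15 and 10 pathway genes, with 6, 1 and 0 at an unadjusted p under 0.05.

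Over the 54 sums of 1 sample and cell type with at least 10 cells and 50000 UMIs, the genes outside the 10 whose log2(CPM + 1) was most like that of B2m were Bst2 (Pearson r = 0.955), an interferon-inducible membrane protein that tethers viruses, Tnfrsf1a (0.947), a receptor of tumour necrosis factor, Tspo (0.939), a mitochondrial protein high in glia, Selenop (0.937) and Fcgrt (0.934), a class I-like chain that pairs with B2m to carry antibodies. Those most like the summed heavy chains were Capzb (0.890), Arpc3 (0.885) and Actb (0.882), parts of the actin skeleton, and Zc3hav1 (0.869) and Apobec3 (0.868), which act against viruses. Among the members themselves B2m was most like Tap1 (0.842) and least like H2-Q7 (0.0846). The sums share libraries, depth and cell types, and the coefficients describe likeness across cell types alone.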

How the data were processed

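The authors deposited, for each of the 6 samples, a matrix of raw UMI counts per gene and barcode, with a software version of 3.1.0 in the matrix header. The labels named mm10 as the build, and the gene IDs were those of mouse. The paper named a human build, which was not used. Cells with 500 to 5000 genes and at most 20% mitochondrial counts were kept, as in the study's methods. They were clustered with Seurat 5.3.0 (2000 variable genes, 15 components, resolution 0.5) into 23 clusters, which were named from marker lists, and 739 cells stayed unnamed. Doublets were kept, since a caller's automatic threshold marked 0 cells in 4 of the 6 libraries, and their removal at 0.8% per 1000 barcodes was an alternative.

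Counts were summed per sample and type. A type was fitted where no sample held fewer than 10 of its cells, using the quasi-likelihood test of edgeR 4.0.16 after filterByExpr and TMM scaling, with Benjamini-Hochberg adjustment over all genes tested, and DESeq2 1.42.0 was an alternative. In simulated counts 74.5% of 2-fold and 99.0% of 4-fold changes were recovered in rod bipolar-like sums of 9332 genes. The study's own test took cells as replicates, whereas here the replicate is the sample. Libraries held 15788524 to 42606878 UMIs, and 1 UMI in the smallest type sum used, 3421 UMIs, is worth over 200 CPM. Same-numbered samples deviated from their group means together over all cells (r = 0.660, 0.286 and 0.490 for replicates 1, 2 and 3), and a fit with the replicate block was run as an alternative. Replicate 1 stood apart in both groups and unlike-numbered samples were not compared, so these values cannot show that the numbers pair samples. The sums over all cells also carry the cell makeup. Within types, all 3 correlations exceeded 0.1 in rod-like (0.245 to 0.471) and cone bipolar-like cells (0.134 to 0.340), and at least 1 did not in the other 6 types, being -0.0441 for replicate 2 in Müller-like, -0.0870 in microglia-like and 0.0843 in rod bipolar-like cells. The members, pathway lists and tests were chosen with earlier results of these data known. Named are all members, each pathway gene that was called, and the 5 genes most like B2m and most like the summed heavy chains, and any further gene was named after its values were seen. Of the pathway lists, 1 gene is counted but not reported here by name. Python 3.11.15 with scipy 1.17.1 gave the exact intervals, and promoter windows and gene positions came from RefSeq and the GRCm38 annotation. The alternatives were DESeq2, no filter on low counts, the replicate block, a term for sex, doublets removed, barcodes with markers of 2 types removed, a mitochondrial limit of 10%, cells thinned to 1000 UMIs and leaving out each sample. The mitochondrial limit of 10% and the thinning did not enter the fits, so no call was checked with them. The median mitochondrial share was 5.86% in OIR replicate 1 and 8.08% in control replicate 1, and 2.24 to 3.31% in the others.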

Additional observations from a re-analysis of the deposited data

Results flagged for a closer look

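A cluster of 374 cells led by Hmox1, Lyz2 and Cd74 held markers of microglia and of lymphocytes, was left unnamed and entered no comparison. Its B2m was 1320.1, 1407 and 1146 CPM in OIR and 877, 951 and 649.5 CPM in control, a mean of 1291 against 826 CPM, so that every OIR sample was above every control sample. Its Tapbp was 109, 69.0 and 79.6 CPM in OIR and 53.6, 50.04 and 37.5 CPM in control, a mean of 85.8 against 47.0 CPM. Both were listed because the signal lay outside the comparisons and above the control samples, and no test was made. The makeup of the cluster moved with the group: the microglia markers summed to 19693 to 22887 CPM in OIR and 10255 to 18525 CPM in control, the perivascular macrophage markers to 141 to 1062 and 3.83 to 187 CPM, the neutrophil markers to 12.3 to 6705 and 12.5 to 38.3 CPM, the lymphocyte markers to 129 to 184 and 163 to 8893 CPM and the red blood cell genes to 0 to 171 and 87.4 to 133961 CPM, the highest being control replicate 2. Their part in both differences was not tested.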

How the results depend on the processing

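No difference called in a cell type changed direction there. Fold changes that were not called did cross 0 under at least 1 alternative, for H2-D1, H2-K1, Tap2 and Tapbp in Müller-like (-0.32 to 0.62 for H2-D1), Tapbp in cone bipolar-like (-0.15 to 0.17), H2-D1, H2-K1, H2-Q4 and Tap2 in microglia-like (-0.79 to 0.38 for H2-D1), B2m, H2-D1, H2-K1 and Tapbp in rod-like, H2-D1, H2-K1 and H2-Q4 in cone-like and B2m in RPE-like cells. A like count can hold other genes: with a term for sex the 1 member called in Müller-like cells was H2-T22 in place of H2-T23, and the 2 pathway genes were Psmb10 and Psme1 in place of Psmb10 and Irf9. In Müller-like cells the count of called members, 1, became 3 with DESeq2 and 5 with no filter on low counts, and 0 to 3 without any 1 sample, and that of other pathway genes, 2, became 8 with no filter, 1 with replicates 2 and 3 alone, 1 in the deeper cluster alone and 0 to 5 without any 1 sample. Of all genes there, DESeq2 called 230 of 11627 higher and the fit with no filter 385 of 18915, against 189 of 11627. In rod bipolar-like cells 4 members became 5 with DESeq2, 5 with no filter, 5 with barcodes holding markers of 2 types removed and 3 with a term for sex. They ranged from 2 to 4 without any 1 sample. Of all genes in these cells, those settings in that order called 132 of 9332, 330 of 17480, 120 of 9309 and 97 of 9332 higher, against 120 of 9332. The 2 pathway genes there became 4 with no filter, 1 with a term for sex, 1 with doublets removed and 1 to 2 without any 1 sample. In cone-like cells 1 pathway gene became 0 with DESeq2, 2 with no filter, 0 with a term for sex, 0 with doublets removed, 3 with replicates 2 and 3 alone and 0 to 3 without any 1 sample. In cone bipolar-like cells 0 pathway genes became 3 with no filter, 1 with replicates 2 and 3 alone and 0 to 1 without any 1 sample (1 when OIR replicate 2, OIR replicate 3 or any control was the one left out). In microglia-like cells 0 members became 1 and 0 pathway genes 3 with no filter, and the latter ranged from 0 to 1 without any 1 sample (1 without OIR replicate 2). With no filter 117 of 14441 genes were called higher there, against 10 of 3393. In rod-like cells 1 pathway gene became 0 with a term for sex, 4 with replicates 2 and 3 alone and 0 to 1 without any 1 sample. The choices of replicates 2 and 3 alone and of the deeper cluster were added after the data had been seen. Replicates 2 and 3 alone, and the fit without control replicate 1, cannot tell group from sex. The mean summed level of the members in VSMC-like cells was 608 CPM and 914 CPM with cells thinned to 1000 UMIs. The causes were not tested.

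With the replicate block the called members were 2 in Müller-like, 5 in rod bipolar-like and 3 in cone bipolar-like cells, and the called pathway genes were 2 in cone-like, 1 in cone bipolar-like and 2 in rod-like cells. The block changed no other count. Of all genes tested the block called 252 higher in Müller-like, 293 in rod bipolar-like and 244 in cone bipolar-like cells, against 189, 120 and 53 without it. Depth limits all statements on VEC-like, VSMC-like and astrocyte-like cells, and in simulated microglia-like sums 27.0% of 2-fold changes were recovered.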

Other observations

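Summed over the 10 members, the mean level over the 6 samples was 4162 CPM in microglia-like, 2338 CPM in VEC-like, 732 CPM in astrocyte-like, 608 CPM in VSMC-like, 448 CPM in Müller-like and 429.8 CPM in RPE-like cells, against 209 CPM in cone-like, 164 CPM in amacrine-like, 124 CPM in cone bipolar-like, 99.1 CPM in rod bipolar-like and 52.9 CPM in rod-like cells.

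H2-Q10, a further Qa-region heavy chain too low for the fit, had 13 counts in OIR and 0 in control rod bipolar-like cells. Fcgrt in microglia-like cells was 161 to 270 CPM in OIR and 100 to 140 CPM in control without a call. These genes were named after their values were seen.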
